A study of Mus musculus with 4 samples.

Results

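The ADP-ribosylation factor (ARF) GTPases Arf1 to Arf6 and Asap1, a GTPase-activating protein that acts on them, were followed in mouse visual cortex by all 11 probe sets whose single gene symbol was one of these 7 genes. The array held 12422 probe sets besides its controls, and those with 1 symbol named 8252 genes. Arf3 had 3 probe sets, Arf6 and Asap1 had 2 each, and Arf1, Arf2, Arf4 and Arf5 had 1 each. The family was chosen by a measured value of the same comparison: Arf3 probe set 96587_at had passed the threshold over the whole array. The differences between deprived and non-deprived cortex reported for Arf3 and its relatives are therefore a description and are no independent evidence.

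All tissue came from wild-type C57Bl6 mice, 5 in number, kept in darkness from birth, with 1 eye removed on postnatal day 42, then 4 days of a normal light-dark environment and death on postnatal day 46. Deprived cortex lay contralateral to the removed eye and non-deprived cortex ipsilateral to it, so both groups shared the dark rearing, the surgery and the light exposure, and no group was reared in light or left with both eyes. Tissue was pooled, and 2 deprived and 2 non-deprived samples were each measured on 1 single-colour Affymetrix array. The labels do not say which mice went into which pool, so spreads and p-values describe differences between these 4 arrays only. In such tissue, fewer cells of a type and less RNA per cell cannot be told apart.

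ARFs are small GTPases that switch between a GDP-bound form and a GTP-bound form held on membranes, where they recruit vesicle coats and lipid-modifying enzymes. Exchange factors load them with GTP, and GTPase-activating proteins (GAPs) end the signal. Arf1, Arf2 and Arf3 form class I and act mainly at the Golgi, Arf4 and Arf5 form class II, and Arf6, the class III member, works at the plasma membrane and endosomes, in neurons also at synapses and dendritic spines. Asap1 is a multidomain ARF GAP that binds Src-family kinases and is known from cell adhesions and the actin cytoskeleton.

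Values are MAS5 signals in arbitrary units, a summary of each probe set's brightness after the authors' scaling. A probe set was tested where its mean signal over the 4 arrays was at least 142.9, the 40th percentile, which kept 7458 probe sets and 9 of the 11. Fold changes from the fit are differences of log2(signal + 60.6), deprived minus non-deprived, so that a negative value means a lower signal in deprived cortex. This scale understates the change of dim probe sets. A difference was called at an adjusted p under 0.05 in limma, adjusted over all tested probe sets. Signals of different probe sets are not compared with each other, since each has its own brightness.

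The median signal of the 4 arrays lay between 189.9 and 245.7, and the mean correlation of an array with the others was 0.910 for deprived array 1 and 0.930 to 0.934 for the rest. Of the 8 marker lists for cortical neurons, glia, vessels, choroid plexus and neighbouring regions, none held a called probe set. At an unadjusted p under 0.05 in limma, the probe sets lower in deprived cortex numbered 2 of 7 for excitatory neurons and 1 of 8 for inhibitory neurons. They numbered 1 of 11 for astrocytes, 2 of 10 for oligodendrocytes and 1 of 9 for microglia, and 1 oligodendrocyte probe set was higher. The lower and the higher oligodendrocyte probe sets were all of 1 gene, Mobp. The higher one had signals of 4853 and 4575 on the deprived against 3707 and 3079 on the non-deprived arrays. The lower ones had 1435 and 1233 against 1806 and 2297, and 595 and 379 against 861 and 695. Both excitatory ones were of Camk2a, a kinase of excitatory synapses, with signals of 71.6 and 294.1 on the deprived against 581 and 754.6 on the non-deprived arrays at 1 probe set. At the other they were 842.1 and 885.7 against 1154 and 1604. Of the other excitatory markers, Neurod2 was lower without overlap, at 1335.7 and 1389 on the deprived against 1577 and 1659.5 on the non-deprived arrays. The groups overlapped for Tbr1, Cux2, Nrgn (7654 and 10285 against 8076 and 10066) and Neurod6 (241 and 178 against 210.4 and 291.7). Summed signals of the excitatory neuron markers (6 of 9 listed genes on the array) were 14089 and 17597 in deprived and 16380 and 17970 in non-deprived cortex. The choroid plexus list (4 of 6 genes on the array) summed to 1105 on deprived array 1 and 219 on deprived array 2, against 530 and 492 in non-deprived cortex. The ratio of 5′ to 3′ signal, a sign of RNA integrity, was lower on both deprived arrays for actin (0.544 and 0.463 against 0.638 and 0.632) and for Gapdh (0.745 and 0.689 against 0.875 and 1.07). The part of these differences in the results below was not tested.

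Promoter windows are shown, 1 each, for Arf3, Arf1 and Arf5, the family members whose windows held the letters marked below. RefSeq (GRCm38.p6) holds windows of 300 bases, from 250 before a transcript start to 50 after it, for 5 of the 7 genes (Arf1, Arf2, Arf3, Arf4 and Arf5), 8 windows in all. These were searched on both strands for the letters of 6 motifs: the cyclic AMP response element (CRE, TGACGTCA), its core TGACGT, which lies within it, the AP-1 site TGANTCA, the Egr site GCGNGGGCG, the Sp1 site GGGCGG, which can overlap the Egr site, and the CCAAT box. Capitals below mark the CRE core or the Egr letters. The windows are Arf3 at chr15:98762943-98763242 on the minus strand, Arf1 at chr11:59228218-59228517 on the minus strand and Arf5 at chr6:28423354-28423653 on the plus strand.
Arf3: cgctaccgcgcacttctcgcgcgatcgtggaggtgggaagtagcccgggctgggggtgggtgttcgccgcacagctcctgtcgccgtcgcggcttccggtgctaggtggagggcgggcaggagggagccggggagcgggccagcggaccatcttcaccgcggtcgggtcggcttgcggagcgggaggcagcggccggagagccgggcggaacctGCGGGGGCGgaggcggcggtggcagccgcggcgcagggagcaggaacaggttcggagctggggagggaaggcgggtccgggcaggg
Arf1: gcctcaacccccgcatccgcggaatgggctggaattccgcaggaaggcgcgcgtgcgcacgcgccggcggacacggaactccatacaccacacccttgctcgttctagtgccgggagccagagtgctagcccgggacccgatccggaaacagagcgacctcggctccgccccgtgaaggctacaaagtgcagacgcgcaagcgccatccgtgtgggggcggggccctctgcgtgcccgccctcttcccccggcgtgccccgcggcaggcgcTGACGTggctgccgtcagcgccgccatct
Arf5: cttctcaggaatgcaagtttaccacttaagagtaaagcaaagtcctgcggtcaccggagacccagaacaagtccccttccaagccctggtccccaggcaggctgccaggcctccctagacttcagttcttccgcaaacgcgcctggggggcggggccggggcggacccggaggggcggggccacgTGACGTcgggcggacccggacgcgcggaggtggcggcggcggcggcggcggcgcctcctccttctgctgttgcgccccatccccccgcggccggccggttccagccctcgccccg

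The Arf3 window held the Egr letters once, with their first base at position -36 from the start, where 5.55% of all 32851 windows held them. None of the other 7 windows of the family held them, the window at the second Arf3 start included. The CRE core stood in the windows of Arf1 and Arf5 and in no window of Arf2, Arf3 or Arf4, beside 7.51% of all windows. The full CRE and the AP-1 letters, found in 1.79% and 7.81% of all windows, were in none of the 8. Sp1 letters stood in all 8, beside 35.7% of all windows, and the CCAAT box in those of Arf2 and Arf4 alone, beside 37.4%. The 2 windows of Arf1 overlapped each other, as did those of Arf2 and those of Arf3, so the 8 windows are not separate. The CRE core of Arf1 was the same site in both of its windows. A match is a run of letters and was not tested as a binding site.

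Arf3 showed 3 different pictures at its 3 probe sets. At 96587_at the deprived arrays 1 and 2 had signals of 214 and 172.1, against 853 and 1402 for the non-deprived arrays 1 and 2. Both deprived arrays lay far below both non-deprived arrays, and the non-deprived pair was itself widely spread. The mean signal was 5.84-fold lower in deprived cortex, at 193.1 ± 29.6 against 1128 ± 388 (SD, n = 2 per group). The log2 fold change was -2.19 ± 0.29 (SE), ranged from -2.65 to -1.73 over the 4 pairings of a deprived with a non-deprived array, and was the largest in either direction among the 7458 tested probe sets.

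At Arf3 probe set 93700_at the signal was 3548 and 4342 on the deprived arrays and 5394 and 7189 on the non-deprived arrays. The groups did not overlap here either, but the gap between them was smaller than the spread within the non-deprived group. The mean signal was 1.59-fold lower in deprived cortex, and the log2 fold change was -0.66 ± 0.20 (SE, n = 2 per group), from -1.01 to -0.31 in the 4 pairs. It did not pass the threshold over all 4 arrays. The log2 fold change was -0.80 without deprived array 2 and -0.45 without non-deprived array 2. Without non-deprived array 1 it was -0.86 and without deprived array 1 -0.51.

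At Arf3 probe set 95889_at the signal was 1500 and 1385 on the deprived arrays and 1434 and 1250 on the non-deprived arrays. Here the groups overlapped, and the log2 fold change was 0.10 ± 0.18 (SE, n = 2 per group), with a 95% confidence interval from -0.29 to 0.49.

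**Figure D1:**
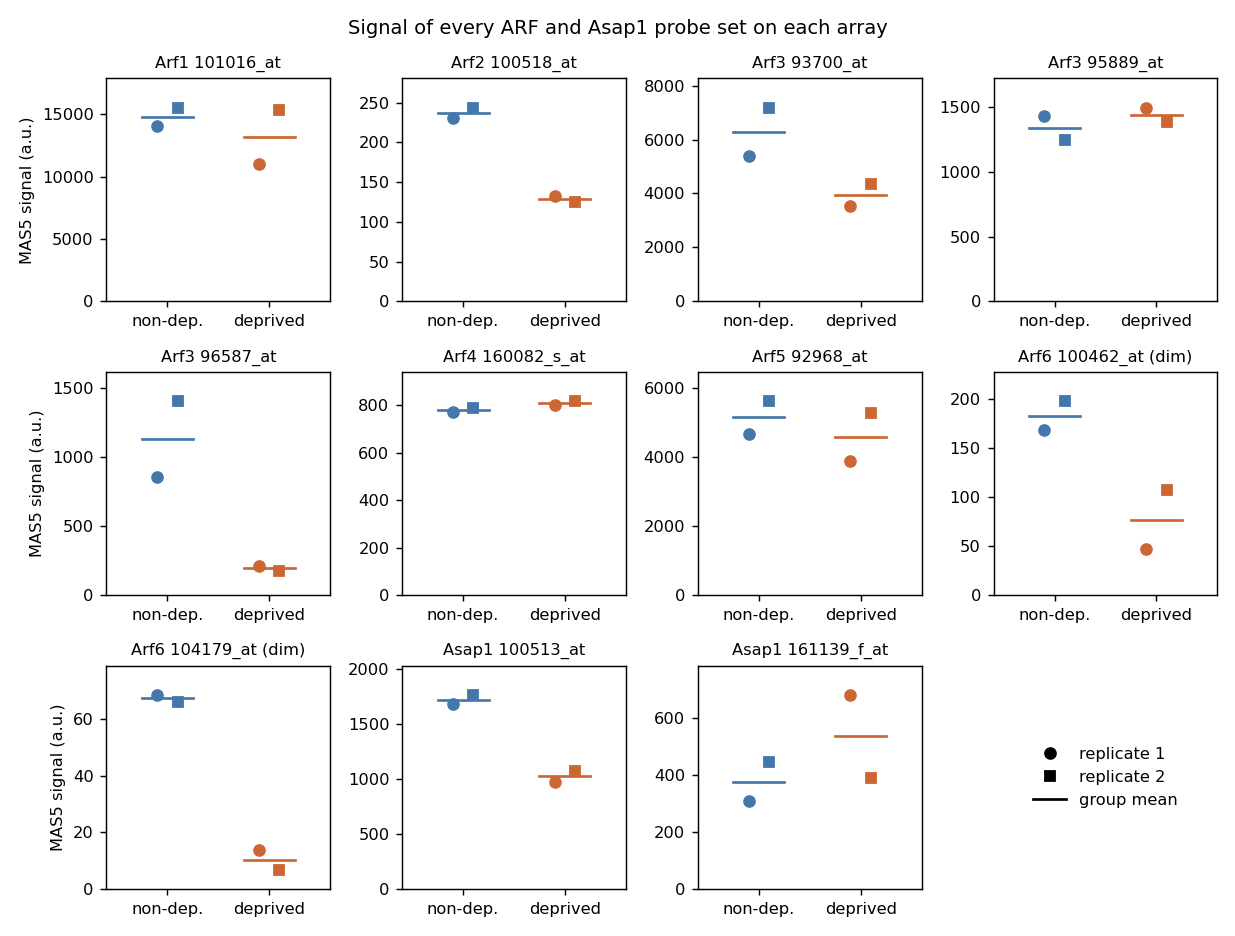
MAS5 signal (arbitrary units, linear axes from 0) of each ARF and Asap1 probe set on the 2 non-deprived and 2 deprived arrays, with circles for replicate 1, squares for replicate 2 and lines for group means. The deprived arrays sit at 172.1 and 214 for Arf3 96587_at, below 853 and 1402, while at Arf3 95889_at the groups overlap.

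The log2 fold changes of the 3 Arf3 probe sets thus spanned a range of 2.29. Among the 107 genes with 3 tested probe sets the median range was 0.57, and none of the other genes had a range as wide as that of Arf3. A wide range is partly given by the choice of the gene, since 96587_at held the largest fold change on the array. Which part of the Arf3 transcript each probe set reads was not analysed here, so no probe set can be assigned to an end or an isoform of the transcript.

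**Figure D2:**
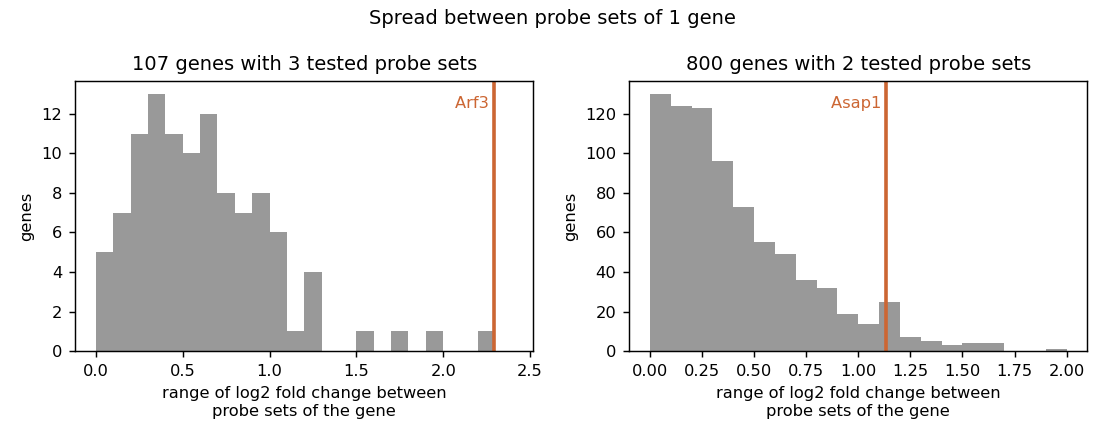
Number of genes (vertical axis) by the range of log2 fold change between probe sets of the same gene (horizontal axis), for genes with 3 tested probe sets and genes with 2. Arf3 stands at 2.29, at the far end of 107 genes, and Asap1 at 1.13, where 39 of 800 genes had a range at least as wide.

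Of the other class I members, Arf1 recruits the COPI coat and adaptor complexes to the Golgi. Its signal at 101016_at was 10970 and 15340 on the deprived arrays and 14020 and 15539 on the non-deprived arrays. The groups overlapped, deprived array 1 being low and deprived array 2 lying within the non-deprived range. The log2 fold change of Arf1 was -0.19 ± 0.23 (SE, n = 2 per group; 95% confidence interval -0.68 to 0.31), and 0.06 without deprived array 1.

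Arf2 is a class I ARF that rodents have and humans lack. Its signal at 100518_at was 132.8 and 125.4 on the deprived arrays and 230.2 and 244 on the non-deprived arrays. The groups did not overlap and each was narrow, but the probe set was dim. The mean signal was 1.84-fold lower in deprived cortex. The log2 fold change was -0.65 ± 0.46 (SE, n = 2 per group), with a 95% confidence interval from -1.66 to 0.36, and it did not pass (adjusted p = 0.999).

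The class II members act between the endoplasmic reticulum and the Golgi. Arf4 had a signal of 800.2 and 815.8 on the deprived arrays and 772.2 and 786.3 on the non-deprived arrays at 160082_s_at. All 4 values were close together, with the deprived arrays slightly higher, and the log2 fold change of Arf4 was 0.05 ± 0.20 (SE, n = 2 per group; 95% confidence interval -0.39 to 0.49). Arf5 had 3888 and 5286 on the deprived arrays and 4682 and 5617 on the non-deprived arrays at 92968_at. The groups overlapped and replicate 1 was the lower array in each. The log2 fold change of Arf5 was -0.18 ± 0.20 (SE, n = 2 per group; 95% confidence interval -0.60 to 0.25), and 0.04 without deprived array 1. Arf1, Arf2, Arf4 and Arf5 all had an adjusted p of 0.999 in limma.

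Arf6, which recycles receptors to the cell surface, was too dim to test at both probe sets. At 100462_at the signal was 46.7 and 107.2 on the deprived arrays and 168.6 and 197.9 on the non-deprived arrays. At 104179_at it was 13.6 and 6.6 on the deprived arrays and 68.5 and 66.1 on the non-deprived arrays. Deprived arrays were below non-deprived arrays at both, but 104179_at lay close to or below the 60.6 added before taking logs. No detection calls were used here, so no fold is given. In a fit without the filter on dim probe sets, over 12422 probe sets, neither passed (adjusted p of 1.00 for both in limma).

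Asap1 also differed between its probe sets. At 100513_at the signal was 977 and 1078 on the deprived arrays and 1682 and 1766 on the non-deprived arrays. The groups were tight and did not overlap, with means of 1027 ± 71.1 and 1724 ± 59.9 (SD, n = 2 per group), 1.68-fold lower in deprived cortex. The log2 fold change was -0.72 ± 0.18 (SE), from -0.82 to -0.61 in the 4 pairs, and did not pass (adjusted p = 0.29 in limma). At 161139_f_at the signal was 679 and 389 on the deprived arrays and 307 and 445 on the non-deprived arrays. Here the groups overlapped, and the log2 fold change was 0.42 ± 0.32 (SE, n = 2 per group; adjusted p = 0.999). It was 0.06 without deprived array 1, the highest of the 4, 0.19 without non-deprived array 1 and 0.78 without deprived array 2. The ending _f marks a probe set whose probes match a family of sequences and _s, as for Arf4, one whose probes are shared by several transcripts, so these signals can hold more than 1 transcript.

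**Figure D3:**
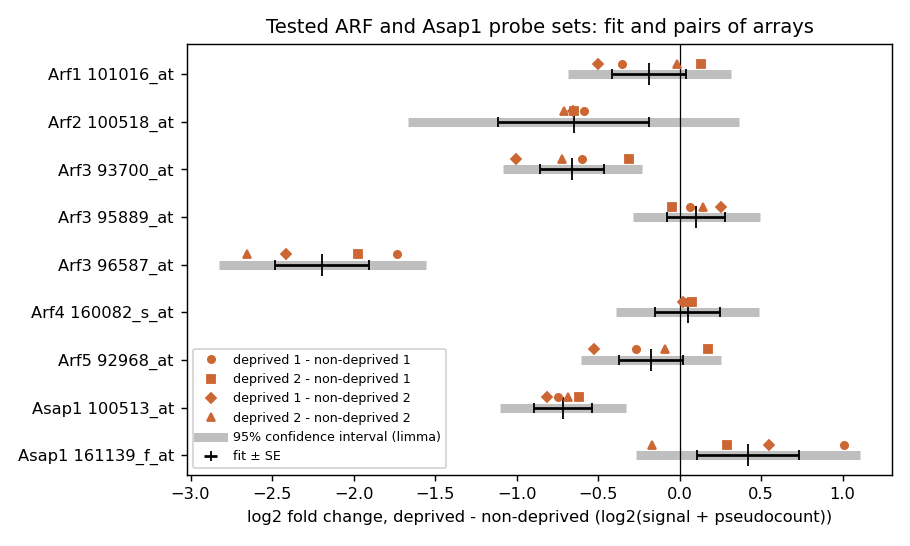
Log2 fold change (horizontal axis, deprived minus non-deprived) of the 9 tested ARF and Asap1 probe sets, with black bars for the fit ± SE, grey bars for 95% confidence intervals and orange symbols for the 4 pairs of arrays. Arf3 96587_at stands at -2.19 with all pairs below -1.7, and the other 8 probe sets lie between -0.72 and 0.42.

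In all, 1 of the 9 tested probe sets was called, Arf3 96587_at (adjusted p = 0.020 in limma), the value by which the family was chosen. Over the array 8 of 7458 probe sets were called, 0.107%, all lower. An unadjusted p under 0.05 was found for 3 of 9, Arf3 96587_at, Arf3 93700_at and Asap1 100513_at, against 5.43% of all tested probe sets. The arrays of the groups did not overlap for 4 of 9 that were lower, where 17.1% of all tested probe sets were lower in this way, and for 1 of 9 that was higher, Arf4, where the share over the array was 15.1%. Signals at least 1.5-fold lower in all 4 pairs of arrays were seen for 3 of 9 (Arf3 96587_at, Asap1 100513_at and Arf2) and for 1.58% of the array. Arf2 only just met that rule, with a smallest log2 difference of -0.59 on this scale, which understates the change of a dim probe set. None of the 9 were as much higher. The median log2 fold change was -0.19 over the 9 probe sets and -0.18 over the 6 that were not of Arf3, beside 0.0015 over all tested probe sets. Since this contrast chose the family, nothing is read from these shares.

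The call of Arf3 96587_at rested in part on 1 array. Without non-deprived array 2, the higher of its group, the log2 fold change was -1.85 and the adjusted p 0.15 in limma. Without any 1 of the other 3 arrays it ranged from -2.53 to -2.07 and passed. It also no longer passed after quantile normalization (-2.17, adjusted p = 0.090) or without the variance trend (-2.19, adjusted p = 0.62).

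Genes with a probe set that followed Arf3 closely over the 4 arrays were ranked by their nearest probe set. The distance was taken between profiles of log2(signal + 60.6), each centred on its own mean. For Arf3 96587_at the 5 nearest genes were Syt1, which triggers vesicle fusion when calcium enters the synapse, Tollip, an adaptor of innate immune receptor signalling, the tyrosine kinase Src, the G-protein regulator Rgs4 and the 14-3-3 protein gene Ywhag. Their distances ran from 0.45 to 0.54 and their log2 fold changes from -1.96 to -1.66. Only Syt1 passed (adjusted p = 0.0023 in limma), and the others had an adjusted p of 0.063 to 0.21. Src (62.8 and 73.9) and Tollip (115.6 and 82.7) were dim on the deprived arrays. Each of these profiles, like that of Arf3 96587_at, was high on both non-deprived and low on both deprived arrays. Tollip and Ywhag had 2 tested probe sets each, whose log2 fold changes spanned 1.91 and 1.68. As with Arf3, the fall thus depended on the probe set. Syt1, Src and Rgs4 had no second tested probe set. For Arf3 93700_at the 5 nearest were Fgfr3, a fibroblast growth factor receptor, Syn2, a synapsin of synaptic vesicles, the stress-response gene Gadd45b, Cplx1, a complexin of the fusion machinery, and the ubiquitin ligase gene Trim37. Here the distances ran from 0.08 to 0.11 and the log2 fold changes from -0.70 to -0.58. In each, deprived array 1 was the lowest array and non-deprived array 2 the highest. None of these 5 passed (adjusted p of 0.48 to 0.999 in limma). Fgfr3 was dim, at 87.7 and 108.6 on the deprived and 156.8 and 237.6 on the non-deprived arrays. With 4 arrays in 2 groups, any genes that differ by a like amount have like profiles.

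**Figure D4:**
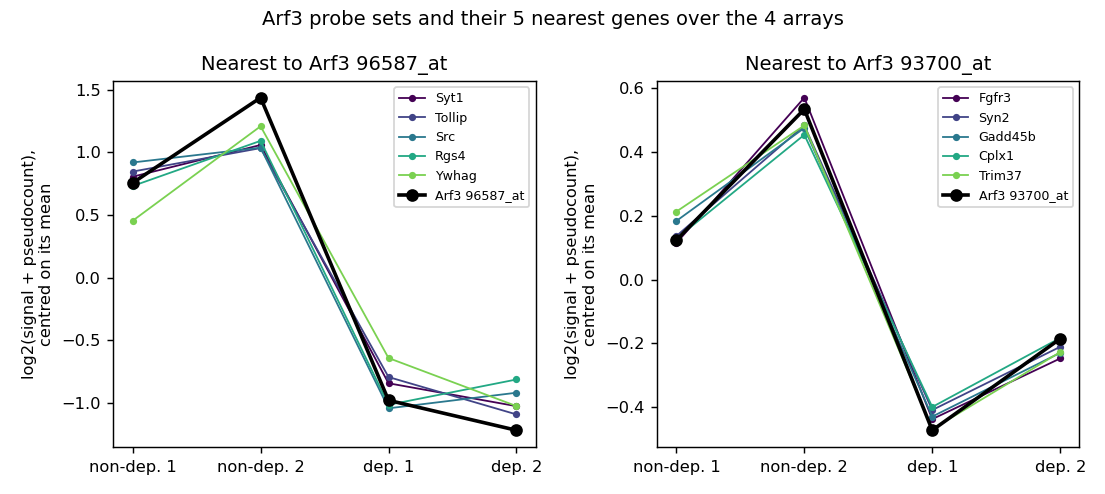
Log2(signal + pseudocount), centred on the mean of each probe set (vertical axis), over the 4 arrays for Arf3 96587_at and Arf3 93700_at in black and the 5 nearest genes of each in colour. For 96587_at the deprived arrays lie below -0.6 in every profile, whereas for 93700_at the profiles differ in step with each array.

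Other genes around the ARF cycle were taken from 5 lists: exchange factors, GAPs, coats and adaptors, further effectors with Golgi partners, and ARF-like and SAR GTPases. Of the 115 listed genes 60 were on the array and 53 were tested, with 62 probe sets. limma called 0 of the 62, beside 0.107% of the array. An unadjusted p under 0.05 was found for 3 that were lower and 1 that was higher, beside 5.43% of the array in either direction. Of the 62 log2 fold changes 25 were below 0 and 37 above, with a median of 0.05.

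Among the 5 tested exchange factors, Arfgef1, which activates class I ARFs at the Golgi, had signals of 1219 and 1349 on the deprived and 1885 and 2099 on the non-deprived arrays. Its groups did not overlap, with a log2 fold change of -0.61 ± 0.17 (SE, n = 2 per group; adjusted p = 0.47 in limma). Gbf1, the exchange factor of the early Golgi, gave -0.01 ± 0.22, and the cytohesins Cyth2 and Cyth3, which act near the plasma membrane, gave 0.25 ± 0.22 and 0.46 ± 0.33. The median of this list was 0.13.

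The GAPs other than Asap1 had 12 tested probe sets for 10 genes, 5 below 0 and 7 above, with a median of 0.05. The lowest were Agap1 at -0.52 ± 0.25 and Arfgap3, a Golgi GAP, at -0.42 ± 0.33 (SE). The other tested probe set of Agap1 gave 0.08. The highest were Arap3 at 0.85 ± 0.58 and Agap2 at 0.53 ± 0.31. Arap3 was dim, with a mean signal of 143.3 just above the filter. Its signals were 246.5 and 156.8 on the deprived and 107.2 and 62.6 on the non-deprived arrays. Agap2 was 0.08 without non-deprived array 1 and 0.98 without non-deprived array 2. None of these 4 passed, and the values of Agap2 and Arfgap3 overlapped between deprived and non-deprived arrays.

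Coats and adaptors that ARFs bring to membranes had 25 tested probe sets, 10 below 0 and 15 above, with a median of 0.07. Ap1g2 and Ap1b1, subunits of the AP-1 adaptor, were lowest at -1.02 ± 0.55 and -0.64 ± 0.56 (SE), the latter at the dimmer of 2 probe sets, of which the other gave -0.06. Ap3m1 of the AP-3 adaptor and the adaptor Gga1 were highest at 0.35 ± 0.37 and 0.30 ± 0.25.

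The further effectors and Golgi partners had a median of -0.01 over 12 probe sets. Pip5k1c, the kinase that makes most synaptic phosphatidylinositol bisphosphate and is stimulated by ARF6, had signals of 253 and 118.4 on the deprived and 404 and 837 on the non-deprived arrays. Its groups did not overlap, with a log2 fold change of -1.45 ± 0.40 (SE, n = 2 per group; adjusted p = 0.44 in limma). The log2 fold change of Pip5k1c depended on the array left out. It was -1.85 without deprived array 1, -1.92 without non-deprived array 1, -1.04 without deprived array 2 and -0.97 without non-deprived array 2. The autophagy gene Wipi2 gave -0.50 ± 0.31 at 1 probe set and 0.02 at the other, and the highest were Kif23, a kinesin of cell division that binds ARF6, at 0.81 ± 0.67 and Kdelr1, the retrieval receptor of the endoplasmic reticulum, at 0.31 ± 0.17. Kif23 was -0.02 without non-deprived array 2.

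The list of ARF-like and SAR GTPases, which also held a partner protein, Arl2bp, had 8 tested probe sets, 2 below 0 and 6 above. Its median was 0.08. Sar1b, the GTPase of the COPII coat, had signals of 446 and 430 on the deprived and 183.5 and 232.2 on the non-deprived arrays at 94870_f_at. The groups did not overlap, at 0.90 ± 0.33 (SE, n = 2 per group; adjusted p = 0.69 in limma), while its other tested probe set gave 0.10. Arl2bp, a partner of Arl2, gave 0.26 ± 0.18, and Arl2 and Arl3 gave -0.33 ± 0.25 and -0.08 ± 0.24.

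**Figure D5:**
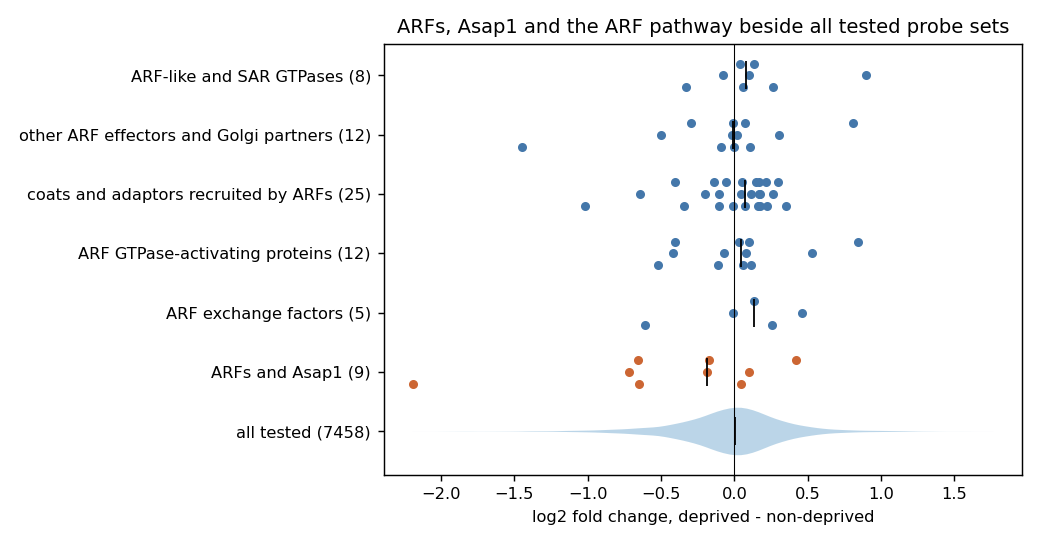
Log2 fold change (horizontal axis, deprived minus non-deprived) of each tested probe set of the ARFs and Asap1 and of the 5 lists of ARF pathway genes, above the distribution of all 7458 tested probe sets, with black ticks for medians. The pathway medians lie between -0.01 and 0.13, and the lowest point in the plot is Arf3 96587_at at -2.19.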

How the data were processed

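Intensities were deposited by the authors as 1 MAS5 signal per probe set on a linear scale, per the submitters' processing notes. Neither those notes nor the file name the MAS5 release, the scaling target or detection calls. On all 4 arrays the trimmed mean (2% from each end) was about 500.3. No 2 arrays shared more than 13 equal signals. Groups were taken from the sample titles. The platform's table gave 1 symbol for 10855 of 12488 probe sets, several for 396 and none for 1237, and 66 were controls. Symbols were updated through a RefSeq table, which matched 10839 of the 10855 and changed no member's symbol.

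Each array was scaled to a common trimmed mean, 60.6 was added (the 20th percentile of mean signals) and log2 was taken. Controls and probe sets with a mean under 142.9 (the 40th percentile) were left out. The groups were compared two-sided with lmFit and trended eBayes of limma 3.58.1 (R 4.3.3), with Benjamini-Hochberg adjustment over 7458 probe sets. It had 2 residual degrees of freedom, 11.6 with the prior. Precision is limited by how few arrays there are: an exact permutation test of 2 against 2 cannot go below 0.333. The fit was also run on simulated signals with known changes, with independent noise whose spread followed the mean signal, as the variance trend assumes. That run checks the fit under its own assumptions and cannot show how well the calls hold for these arrays. Each mouse had a deprived and a non-deprived side, and the design text of the series names same-animal and cross-animal comparisons. Deprived and non-deprived arrays can therefore share animals, but no label ties a replicate number to animals. The main fit thus did not treat the arrays as pairs. An alternative fit, blocked on replicate number, called 40 probe sets over the array, against 8 in the main fit.

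The members and lists were chosen with earlier results of these data known. Named were all member probe sets, the 2 lowest and 2 highest of each pathway list, those at an unadjusted p under 0.01, and the 5 genes nearest to each of 2 Arf3 probe sets (the largest fold change, the highest signal). Alternatives were other scalings, pseudocounts and filters, no variance trend, the replicate block and leaving out each array.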

Additional observations from a re-analysis of the deposited data

How the results depend on the processing

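The count of 8 probe sets called over the array became 1 after quantile normalization, 3 with a common median, 0 without the variance trend (where 390 had an unadjusted p under 0.05) and 40 with the replicate block, and 5 to 90 with 1 array left out. The 1 called probe set of the family, Arf3 96587_at, became 0 after quantile normalization and 0 without the variance trend, and 0 to 2 with 1 array left out. The deviations of same-numbered arrays from the means of their groups correlated at r = 0.27. With 2 arrays per group, both numbers give this same value, and swapping the numbers within a group reverses its sign. It therefore cannot show whether same-numbered arrays belong together. No label says whether same-numbered arrays share animals. The replicate block changed no call of a member or named pathway gene (the count stayed at 1), and with it Arf3 93700_at and Asap1 100513_at had an adjusted p of 0.075 in limma. The 3 probe sets lower by 1.5-fold in all pairs became 1 at 2-fold, 1 with a common median and 1 with a pseudocount at the 40th percentile. The count of called pathway probe sets was 0 to 1 with 1 array left out. Apart from rules that are stricter by construction, the cause was not tested.

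Some values changed sign. Gbf1 gave 0.034 after quantile normalization, 0.010 with a common median and -0.28 to 0.26 with 1 array left out. With 1 array left out, Arf1 ran from -0.43 to 0.055, Arf5 from -0.39 to 0.043, Cyth3 from -0.0032 to 0.93, Kif23 from -0.019 to 1.64, Arl3 from -0.18 to 0.022 and Ap1b1 at 161249_at from -1.50 to 0.21. Over the 9 tested member probe sets, 101 alternative values kept their direction and side of the threshold. In 3 the pass was lost, in 1 it was gained and in 2 the sign turned. For the named pathway probe sets these counts were 225, 0, 1 and 7. A fit with 1 array left out takes the spread of the remaining single array from the other group.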
